A study of Mus musculus with 6 samples.

Results

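Interstitial mesenchymal cells of the adult mouse testis were taken from a droplet single-cell RNA-seq data set of testes from mice exposed to cigarette smoke and from control mice. A barcode (the tag of a droplet) was a member when at most 20% of its unique molecular identifiers (UMIs, each marking a captured RNA molecule) were mitochondrial and when Dcn, Col1a1, Col1a2, Col3a1, Lum, Pdgfra, Tcf21 and Igf1 together gave at least 6 UMIs from at least 3 of these genes. This sum also had to exceed the sum of 6 peritubular myoid genes (Acta2, Myh11, Cnn1, Tagln, Actg2 and Des) and the sum of 5 Leydig cell genes (Cyp17a1, Cyp11a1, Hsd3b1, Star and Insl3). The rule found 276 members among 51794 retained barcodes of 54253 deposited ones, or 0.533% of the retained barcodes (exact 95% interval 0.472 to 0.599%, counting error only). Members numbered 55, 58 and 35 in smoking libraries 1 to 3 and 51, 26 and 51 in control libraries 1 to 3. The 19 genes of the rule chose the cells, so their levels are given as a description and carry no test.

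The smoking group was 3 libraries of ICR mice (an outbred stock) exposed to the smoke of 15 cigarettes for 30 minutes a day over 12 weeks, and the control group was 3 libraries of ICR mice kept without smoke. Nicotine content was 1.1 mg and tar content 11 mg per cigarette, and the smoke concentration was 3.47 mg/m3. All mice were males bought at 6 weeks of age and adapted for 1 week, and the left testis was dissociated and depleted of dead cells. The labelled age of 8 weeks does not match this schedule, and the labels give 7 mice per group without saying which mouse a library came from. P-values therefore measure the spread between these libraries, which may be technical.

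Fibroblast-like mesenchymal cells lie between the seminiferous tubules, around vessels and under the tubule wall. They make the collagens, proteoglycans and basement membrane proteins of the interstitium and secrete binding proteins and ligands that act on neighbouring cells. In the mouse, Tcf21- and Nr2f2-expressing interstitial cells have been described as a progenitor pool that can give rise to Leydig and peritubular myoid cells. Fibroblasts of many tissues switch on immediate-early genes within minutes of dissociation.

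Members were sequenced at a median of 3703, 4508 and 3725 UMIs in smoking libraries 1 to 3 and 4933, 4526 and 4231 UMIs in control libraries 1 to 3. Per library this averaged 3979 ± 458 in smoking and 4563 ± 352 in control libraries (SD, n = 3 each, exact two-sided permutation p = 0.2, smallest possible 0.1). Summed over members, a library held 151129 to 281574 UMIs in smoking and 118872 to 248265 UMIs in control. Pairs of libraries shared 16 to 34 barcode sequences.

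Spermatid transcripts were present in every library and in every member. The 15 spermatid markers took 14.4, 15.0 and 15.96% of the UMIs of all other retained barcodes in smoking libraries 1 to 3, against 10.7, 11.1 and 13.5% in control libraries 1 to 3, so control 3 lay nearest to the smoking libraries. In members the same markers took 6.48, 7.69 and 7.21% in smoking libraries and 4.38, 5.09 and 4.68% in control libraries. If all of them were free RNA of the composition of the other barcodes, free RNA would make up 45.2, 51.2 and 45.2% of member UMIs in smoking libraries and 40.9, 45.7 and 34.6% in control libraries. This share, called expected free RNA, is given per gene below and was computed with all members.

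4 members stood apart, and all of them were in smoking libraries. They held 45600 UMIs in smoking 1, 19891 and 9685 UMIs in smoking 2 and 23510 UMIs in smoking 3, and 15.1 to 29.4% of these UMIs were spermatid markers. They gave 17.7, 10.5 and 15.6% of all member UMIs in smoking 1, 2 and 3. Without them, spermatid markers took 4.64, 5.66 and 3.91% of member UMIs in smoking libraries, against the same 4.38, 5.09 and 4.68% in control libraries, and the groups overlapped. Expected free RNA was then 32.3, 37.7 and 24.5% of member UMIs in smoking libraries, against the same 40.9, 45.7 and 34.6% in control libraries. High doublet scores, from a comparison with simulated pairs of barcodes, marked 10.5% of members and 7.38% of retained barcodes. The comparison of genes below is also given without the 4 spermatid-rich members, a choice made after the data were seen. These members were picked by a spermatid-marker share over 12%, so the fall of this share and of expected free RNA without them follows from the choice.

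**Figure D1:**
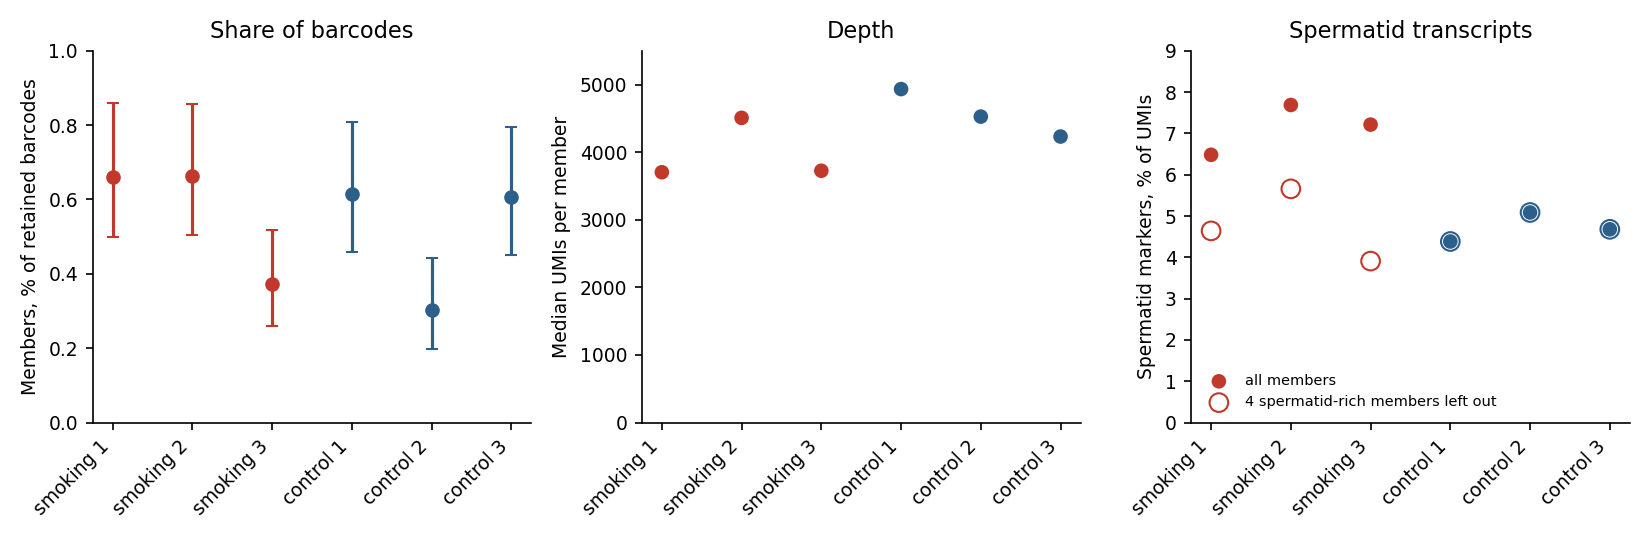
Members by library: their percent of retained barcodes with exact 95% intervals (left), their median UMIs (middle) and the percent of their UMIs from 15 spermatid markers (right), with filled points for all members and rings without the 4 spermatid-rich ones. Smoking libraries are red and control libraries blue. The share of barcodes overlaps between groups, and the spermatid share lies at 6.48 to 7.69% in smoking and 4.38 to 5.09% in control libraries until the 4 members are left out.

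The members expressed genes that fit the label. Of the rule genes, Dcn (decorin, a collagen-binding proteoglycan) was at 9226 CPM (UMI counts scaled to equal library totals) in members and 1.83 CPM in barcodes that met no somatic rule, and Col1a2 was at 1106 against 0.39 CPM. Among 18 markers of interstitial stroma outside the rule, every one had UMIs in members, and together they took 0.789 to 0.956% of member UMIs in smoking libraries and 0.838 to 1.08% in control libraries. Ly6a (Sca-1, a stromal progenitor antigen) had a UMI in 67.4% of members and in 0.118% of barcodes that met no somatic rule, at median depths of 4278 and 2680 UMIs. After thinning each barcode to 1500 UMIs these shares were 45.3 and 0.0657%.

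Other stromal markers were shared with neighbouring cells to different degrees. Nr2f2 (COUP-TFII, an orphan nuclear receptor) was at 218 CPM in members, 151 CPM in myoid, 87.2 CPM in Leydig and 1.40 CPM in no-rule barcodes. Cd34 was at 396 CPM in members and 384 CPM in endothelial barcodes, so it did not separate these types. Nr2f1 and the pericyte gene Pdgfrb were low in members, at 1.57 and 28.2 CPM, against 18.3 and 104 CPM in myoid barcodes.

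Several defining markers of neighbouring cells were far lower in members than in those cells. Acta2 and Myh11 of smooth muscle were at 10.2 and 1.57 CPM in members, against 2216 and 572 CPM in myoid barcodes, and Insl3 of Leydig cells was at 16.4 against 5412 CPM in Leydig barcodes. Another myoid gene of the rule, Actg2, was higher in members, with 92.1% expected free RNA. It was at 182, 224 and 132 CPM in smoking libraries and 101, 92.5 and 114 CPM in control libraries. Pecam1 was at 1.57 CPM in members and 192 CPM in endothelial barcodes, and the mesothelial genes Upk3b and Msln had no UMI in members. The Sertoli gene Amh had none either, but it was at only 1.72 CPM in Sertoli barcodes and so did not separate these types. Together, the 17 Sertoli markers were at 1088 CPM in members and 83.2 CPM in no-rule barcodes. The 11 Leydig markers were at 833 and 45.9 CPM, and the 11 myoid markers at 615 and 348 CPM. The 12 endothelial markers were at 72.8 and 27.6 CPM, and the 11 mesothelial markers at 54.8 and 13.8 CPM. Macrophage markers differed between libraries: their 14 genes took 0.0655, 0.00320 and 0.0212% of member UMIs in smoking libraries 1 to 3 and 0.00403, 0.105 and 0.0041% in control libraries 1 to 3. Csf1r was at 31.0 CPM in smoking 1 and 50.5 CPM in control 2 and had no UMI in the members of the other 4 libraries. Leaving out the 41 members with at least 3 UMIs of markers of other somatic types is among the alternatives.

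Outside the rule genes, the highest ratios of members over all other retained barcodes were for Gsn (gelsolin, which severs actin filaments) at 5195 against 5.12 CPM and Igfbp6 (an IGF-II-binding protein) at 2859 against 2.68 CPM. Also high were Adamts5 (a proteoglycan-cleaving protease) at 1019 against 0.728 CPM and Mgp (matrix Gla protein, an inhibitor of calcification) at 2833 against 5.36 CPM. Cyp26b1, the retinoic acid hydroxylase, was at 623 CPM in members and at 3.73 CPM or less in the myoid, Leydig, endothelial, macrophage and Sertoli barcodes. Over the 6 libraries Mgp ranged over 2393 to 3218 CPM, Adamts5 over 778 to 1228 CPM, Gsn over 4074 to 6952 CPM, Igfbp6 over 2472 to 4316 CPM and Cyp26b1 over 411 to 946 CPM. Osr1, an early mesenchymal transcription factor, was at 311 CPM against 0.369 CPM elsewhere, and Rarres2 (chemerin) at 621 against 1.20 CPM. Since these cells were picked by genes that move with them, the ratios describe the members and were not tested.

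**Figure D2:**
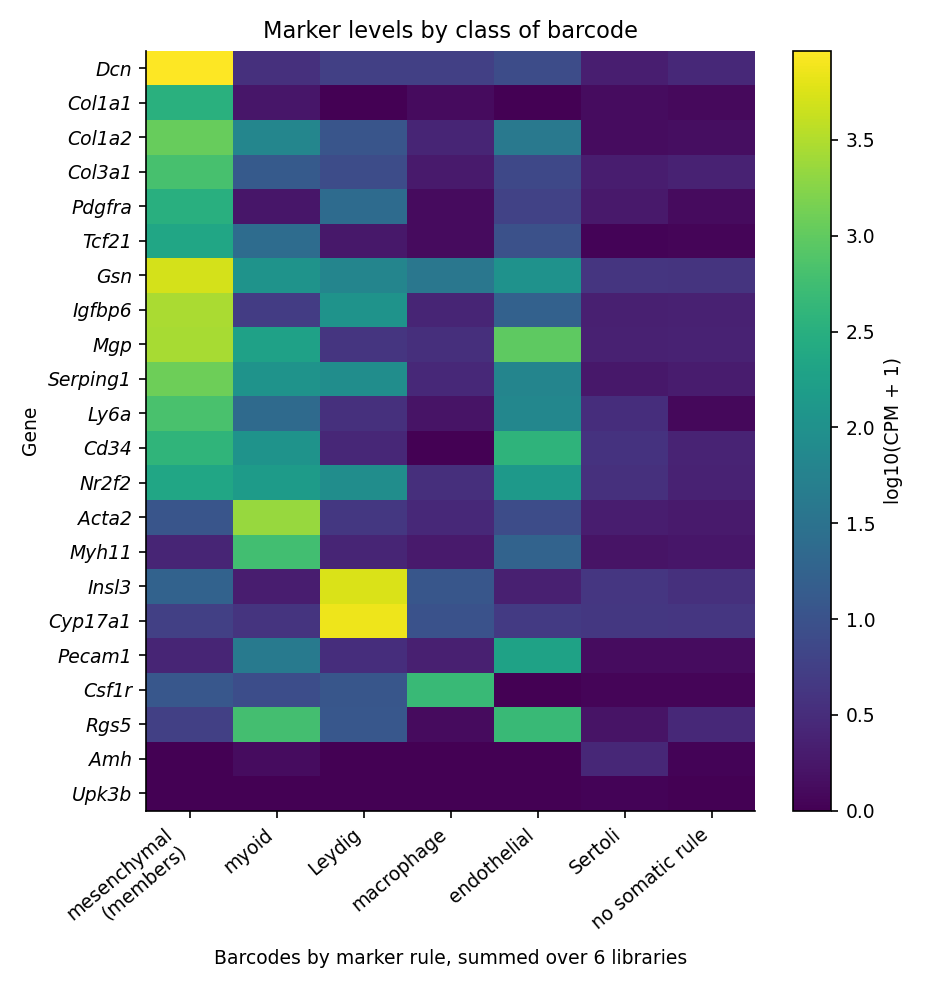
Levels of 22 marker genes (rows) in members and in barcodes of 6 other classes (columns), as log10(CPM + 1) of UMIs summed over the 6 libraries. The 6 markers given with the rule and Gsn, Igfbp6, Mgp and Serping1 are highest in the member column, and Acta2, Insl3, Pecam1 and Csf1r are highest in the myoid, Leydig, endothelial and macrophage columns.

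The members were not uniform. Clustering them on 800 variable genes with low expected free RNA gave 4 subgroups of 21, 99, 103 and 53 barcodes. The subgroup of 99 was led by Ctgf (1135 against 124 CPM in the other members), Wisp2, Cyp26b1 (1174 against 256 CPM) and Aldh1a1, which makes retinoic acid. The subgroup of 103 was led by the immediate-early genes Junb, Egr1, Fos (3683 against 884 CPM) and Jun. The subgroup of 53 was the shallowest, with a median of 3506 UMIs, and was led by Mgp (4851 against 2482 CPM). These genes defined the subgroups and are no finding about them.

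The smallest subgroup, of 21 barcodes with a median of 5414 UMIs, was led by matrix and secreted proteins. Col6a5 was at 1076 CPM there and 26.8 CPM in the other members, Col3a1 at 3717 against 323 CPM, Lum (lumican) at 1291 against 66.6 CPM and Gdf10 at 654 against 1.73 CPM. The complement component C3 (1358 against 108 CPM), Igfbp3 (836 against 41.5 CPM), Eln (elastin, 844 against 44.9 CPM) and Dpt (dermatopontin, 522 against 6.91 CPM) followed. The same 21 barcodes formed a subgroup at resolutions 0.5, 0.8 and 1. It is called collagen-rich here and is given no cell type name. Its barcodes numbered 2, 0 and 0 in smoking libraries 1 to 3 and 13, 1 and 5 in control libraries 1 to 3. These counts are a description: genes that define the subgroup also differed between the groups, so its size was not compared.

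Members made up 0.661, 0.663 and 0.372% of retained barcodes in smoking libraries 1 to 3 and 0.616, 0.302 and 0.605% in control libraries 1 to 3. The means were 0.565 ± 0.168% in smoking and 0.508 ± 0.178% in control libraries (SD, n = 3 each), a difference of 0.0577 percentage points (exact two-sided permutation p = 0.5). The groups overlapped, and the order of the means was the other way round as a percent of barcodes meeting any somatic rule, at 4.43 ± 0.985% in smoking and 4.85 ± 1.66% in control libraries (exact permutation p = 0.8). It was also the other way round after thinning to 1500 UMIs, at 0.411% in smoking and 0.425% in control libraries, and without control 2, by -0.0451 percentage points. A difference in the share of these cells was not detectable with these libraries.

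The effect of smoking on expression was asked over library sums of member UMIs. edgeR's quasi-likelihood test called 32 of 4292 tested genes at a Benjamini-Hochberg adjusted p under 0.05, which is 0.746% of tested genes, with 19 higher in smoking (0.443%) and 13 lower (0.303%). One of those lower, Col3a1, is a rule gene, which leaves 31 called genes. Of the 12 other genes lower in smoking 10 had under 5% expected free RNA, whereas all 19 higher ones had 61.4% or more. DESeq2 called 15 genes and limma-voom 27. The count changed when single libraries were left out: it was 4, 64 and 0 without control 1, 2 and 3 and 18, 0 and 5 without smoking 1, 2 and 3. The 19 higher and 12 lower genes outside the rule had median log2 folds of 0.89 and -1.67 without control 3. Without smoking 2 these were 0.80 and -1.34, against 0.89 and -1.68 with all libraries. An unadjusted p below 0.05 (edgeR) was found for 428 of 5054 tested genes without control 3 and 426 of 4685 without smoking 2. With all libraries it was 482 of 4292. Without the 4 spermatid-rich members edgeR called 1 gene, Igfbp3. All 12 lower genes outside the rule then stayed negative, with a median log2 fold of -1.54 against -1.68 with all members, and all 19 higher ones stayed positive, at a median of 0.39 against 0.89. Without these members and the collagen-rich subgroup it called 0 of 3542, of which 129 had an unadjusted p below 0.05.

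12 called genes outside the rule were lower in smoking, and 9 of them did not overlap between the groups. Without regard to the call, 8.06% of all tested genes were lower in every smoking library than in every control library. A call favours genes without overlap, so the lack of overlap adds no support to the call. Igfbp3 encodes the main circulating carrier of insulin-like growth factors and lies on chromosome 11 at 7206086 to 7213923 of GRCm38 (minus strand). It was at 85.2, 24.9 and 6.62 CPM in smoking libraries 1 to 3 and at 205, 261 and 168 CPM in control libraries 1 to 3. The highest smoking library stayed below the lowest control. The log2 fold was -2.23 (SE 0.38, edgeR adjusted p = 0.0154), on 22, 7 and 1 UMIs in smoking and 51, 31 and 37 UMIs in control libraries. Without control 3 its adjusted p was 0.172 and without smoking 2 it was 0.209 (edgeR).

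The signalling genes among them were Cxcl1, Sfrp1 and Gas6. Cxcl1, a neutrophil-attracting chemokine, was at 38.7, 74.6 and 6.62 CPM in smoking libraries and 278, 33.6 and 309 CPM in control libraries. Control 2 lay within the smoking range, so the groups overlapped (log2 fold -2.29, SE 0.46, edgeR adjusted p = 0.0270). Sfrp1, a secreted antagonist of Wnt ligands, was at 23.2, 10.7 and 6.62 CPM in smoking and 105, 58.9 and 54.6 CPM in control libraries. This was the lowest-count call of the signalling genes, with 1 to 6 UMIs per smoking library (log2 fold -2.33, SE 0.48, edgeR adjusted p = 0.0270). Gas6, the ligand of the TAM receptor kinases, was at 58.1, 53.3 and 126 CPM in smoking and 197, 193 and 146 CPM in control libraries, without overlap (log2 fold -1.26, SE 0.30, edgeR adjusted p = 0.0363).

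Genes of the matrix were Sparc, Serpinh1, Mmp2 and Col6a5. Sparc, a collagen-binding matricellular protein, was at 1212, 948 and 1026 CPM in smoking and 2477, 1296 and 2229 CPM in control libraries (log2 fold -0.91, SE 0.20, edgeR adjusted p = 0.0270). It was the most abundant of the called genes, seen in 256 of 276 members. Serpinh1 (HSP47, the collagen chaperone of the endoplasmic reticulum) was at 182, 153 and 159 CPM in smoking and 314, 286 and 287 CPM in control libraries, with little spread inside either group (log2 fold -0.83, SE 0.19, edgeR adjusted p = 0.0360). Mmp2, a gelatinase, was at 46.5, 10.7 and 46.3 CPM in smoking and 246, 50.5 and 81.9 CPM in control libraries (log2 fold -2.08, adjusted p = 0.0363). Col6a5, a collagen VI chain, was at 105, 3.55 and 6.62 CPM in smoking and 310.2, 84.1 and 205 CPM in control libraries, and its smoking 1 value lay above control 2 (log2 fold -2.34, adjusted p = 0.0279).

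Egr1 and Atf3, transcription factors induced by growth factors and by stress, were lower as well. Egr1 was at 806, 820.4 and 576 CPM in smoking and 1627, 1136 and 1224 CPM in control libraries (log2 fold -0.83, SE 0.18, edgeR adjusted p = 0.0270). Atf3 was at 116, 81.7 and 152 CPM in smoking and 334, 159.8 and 227 CPM in control libraries (log2 fold -1.15, SE 0.26, edgeR adjusted p = 0.0360). Neither overlapped between groups. Myh10, a non-muscle myosin heavy chain, was at 15.5, 10.7 and 6.62 CPM in smoking and 64.4, 50.5 and 50.04 CPM in control libraries (log2 fold -2.20, adjusted p = 0.0360), on 1 to 4 UMIs per smoking library. Dnah8, an axonemal dynein of the sperm tail, had 60.4% expected free RNA and was at 376, 195 and 152 CPM in smoking and 350.4, 766 and 764 CPM in control libraries (log2 fold -1.28, adjusted p = 0.0270). Its log2 fold was -1.18 in all other retained barcodes and -0.92 in Leydig barcodes.

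**Figure D3:**
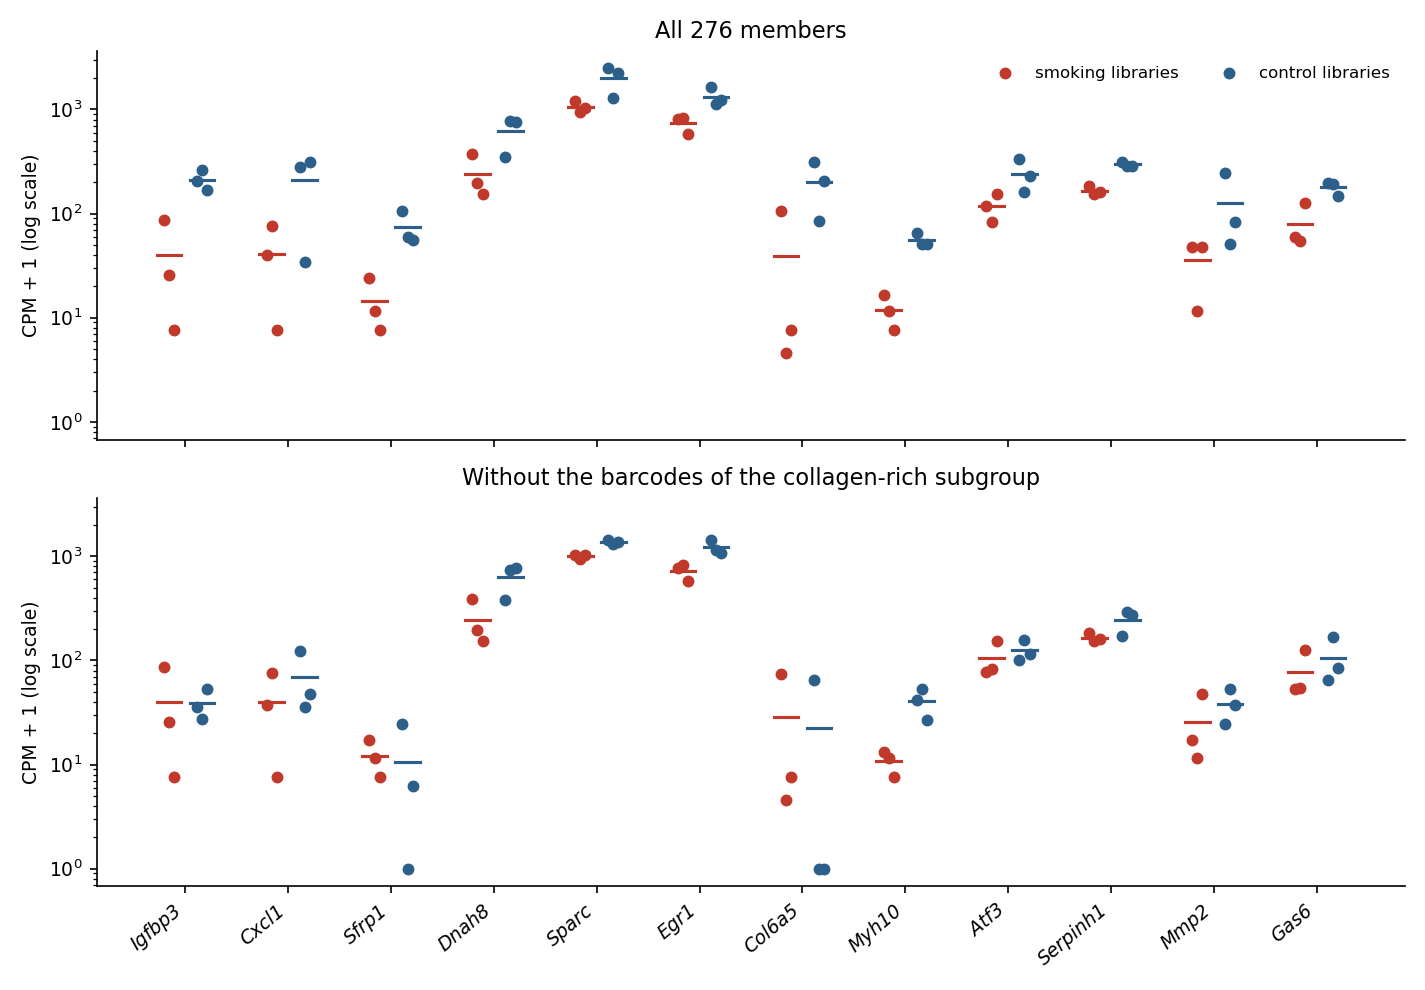
CPM + 1 on a log scale of the 12 genes lower in smoking, with smoking libraries in red, control libraries in blue and a bar at each mean. The upper panel holds all 276 members and the lower one leaves out the 21 collagen-rich barcodes, where Igfbp3 averages 38.9 CPM in smoking and 37.8 CPM in control libraries. These barcodes were mostly from control libraries and Igfbp3 was among their leading genes, so its fall in control libraries follows from their choice.

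Many UMIs of these genes lay in the collagen-rich subgroup. It gave 9.45% of all member UMIs but 67.8% of the Igfbp3 UMIs, 80.7% of Col6a5, 76.4% of Sfrp1, 71.0% of Mmp2, 62.4% of Cxcl1, 46.5% of Atf3 and 39.2% of Gas6. Of Sparc it gave 32.7%, of Serpinh1 21.8% and of Egr1 18.2%. Igfbp3, Col6a5, Cxcl1, Mmp2, Atf3 and Sparc were among the genes that led this subgroup, and 19 of its 21 barcodes were from control libraries. Lower control levels of these genes on leaving it out therefore follow from its choice and are no test. Without it, Igfbp3 was at 85.2, 24.9 and 6.62 CPM in smoking libraries and 35.0, 26.3 and 52.1 CPM in control libraries, and the groups overlapped. In control 2, where the subgroup was 1 barcode, Igfbp3 was at 261 CPM with that barcode and 26.3 CPM without it. edgeR then called 14 genes, of which 13 were higher and Dnah8 was lower. Igfbp3, Cxcl1, Sfrp1, Col6a5, Myh10 and Mmp2 no longer had enough UMIs for the test.

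Some differences kept their direction outside that subgroup. Without it, Sparc was at 1038, 948 and 1026 CPM in smoking libraries and 1446, 1306 and 1385 CPM in control libraries. The groups still did not overlap, with a log2 fold of -0.42 (edgeR adjusted p = 0.239). Egr1 was at 775, 820.4 and 576 CPM in smoking and 1434, 1148 and 1067 CPM in control libraries, with a log2 fold of -0.69 (edgeR adjusted p = 0.0517). Myh10 was at 12.2, 10.7 and 6.62 CPM in smoking and 40.8, 52.6 and 26.03 CPM in control libraries, with no overlap. Atf3 had a log2 fold of -0.25 and Gas6 of -0.42 (edgeR adjusted p = 0.851 and 0.786). With the 4 spermatid-rich members left out too, the log2 fold of Sparc was -0.23, of Egr1 -0.50 and of Serpinh1 -0.34, none called.

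Bases before the RefSeq start of 3 of the lower genes are shown because Cxcl1 and Atf3 are genes of stress and inflammation that were lower beside Igfbp3. Each is 120 bases, 5′ to 3′ on the gene's strand of GRCm38.p6, in lower case. Capitals mark matches to motifs searched on both strands: TTACGTCA, a cyclic AMP response element variant that here overlaps the shorter element TGACG on the other strand, in Atf3, and the NF-kappaB site, on both strands and overlapping itself, in Cxcl1.
Atf3, chr1:191183334-191183453, minus strand: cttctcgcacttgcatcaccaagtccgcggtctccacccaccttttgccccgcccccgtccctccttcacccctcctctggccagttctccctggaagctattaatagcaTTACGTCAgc
Cxcl1, chr5:90891125-90891244, plus strand: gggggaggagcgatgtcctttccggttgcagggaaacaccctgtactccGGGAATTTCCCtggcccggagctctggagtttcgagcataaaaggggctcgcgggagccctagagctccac
Igfbp3, chr11:7213924-7214043, minus strand: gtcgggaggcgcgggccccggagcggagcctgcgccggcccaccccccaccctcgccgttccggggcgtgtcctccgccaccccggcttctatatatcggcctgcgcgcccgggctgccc

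In the 250 bases before the start, TTACGTCA was found in Atf3 alone among the 9 lower genes matched in the RefSeq table and in 0.477% of 27025 promoters. The NF-kappaB site was found in Cxcl1 and Serpinh1 and in 3.75% of all promoters. The shorter element TGACG was found in Atf3 and Cxcl1 and in 17.9% of all promoters, and TGANTCA, the AP-1 site, in none of the 9 and in 6.87% of all. A match is a description of letters and says nothing of binding in these cells.

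The 19 genes higher in smoking were of another kind. Their expected free RNA was 61.4 to 100% with a median of 94.6%, and all 19 were also higher in smoking in the other retained barcodes, by 0.33 to 0.64 on the log2 scale. They did not overlap between groups, which the call itself favours, beside 7.81% of all tested genes that were higher in every smoking library. Tex35, a testis-expressed gene, was at 309.8, 362 and 251 CPM in smoking and 181, 143 and 127 CPM in control libraries (log2 fold 1.06, SE 0.21, edgeR adjusted p = 0.0270). Dnajb3, a chaperone gene of spermatids, was at 964, 966 and 1045 CPM in smoking and 612, 689.8 and 587 CPM in control libraries (log2 fold 0.69, SE 0.16, edgeR adjusted p = 0.0360). Fam71e1, Spata3, Ms4a5, Otub2, Sh3rf2 and 4930503B20Rik had log2 folds of 0.76, 0.74, 0.93, 0.88, 0.89 and 1.03.

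Without the 4 spermatid-rich members, 0 of the 19 genes were called by edgeR, and 192 of 4247 tested genes had an unadjusted p below 0.05. These members were picked by their spermatid share and all lay in smoking libraries. A smaller difference in spermatid transcripts without them therefore follows from the choice and is no test.

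Across all genes the fold followed expected free RNA. The 688 tested genes with under 5% expected free RNA had a median log2 fold of -0.18. Of them 0 were called higher and 11 lower. The 11 include the rule gene Col3a1, which helped choose the cells and carries no test, so 10 lie outside the rule. The 688 genes and their median also include rule genes. The 513 genes with over 90% had a median log2 fold of 0.34. The median of all 4292 genes was -0.013, with 2090 above 0. In sums with expected free RNA subtracted, the edgeR count was 0 of 2678, of which 85 had an unadjusted p below 0.05.

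**Figure D4:**
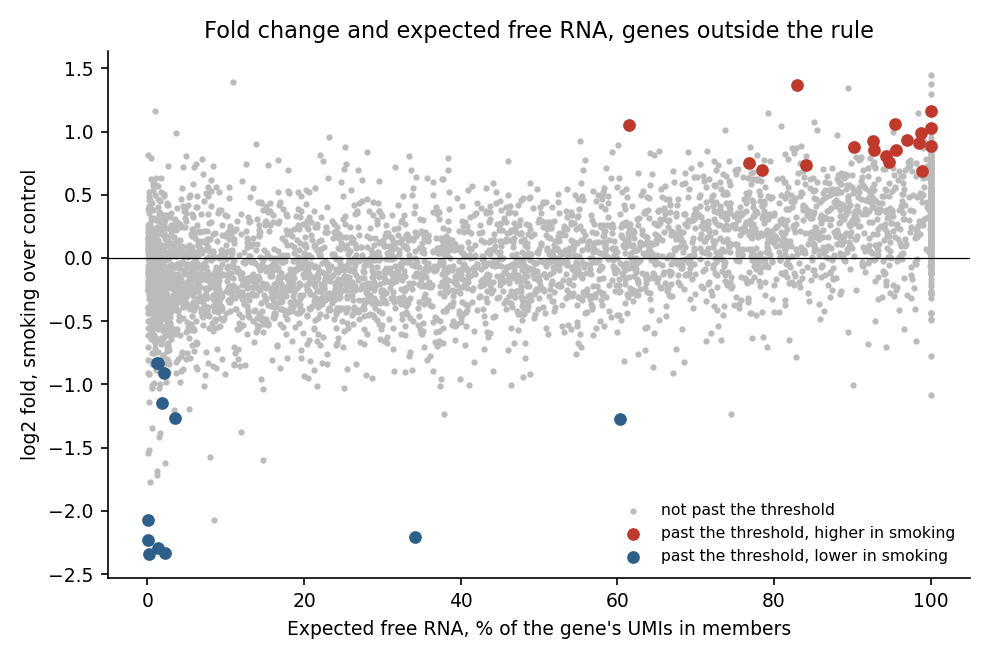
Log2 fold of smoking over control against expected free RNA (percent of a gene's UMIs in members) for each tested gene outside the rule. Red points are the 19 genes called higher, all at 61.4% or more, and blue points the 12 called lower, of which 10 lie under 5%.

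Gene lists of mesenchymal functions held more genes below 0 than above, with few calls. Of all 4292 tested genes 2202 were below 0 and 482 had an unadjusted p under 0.05 (edgeR). The 4 lists of this paragraph had 0.249 to 2.93% expected free RNA. All 688 tested genes under 5% had a median log2 fold of -0.18, so list medians near that value do not set a list apart. Of 14 tested basement membrane genes 11 were lower and 1, Sparc, was called, with a list median log2 fold of -0.32. Lama2, the laminin chain of mesenchymal basement membranes, was at 360.2, 479 and 503 CPM in smoking and 358, 589 and 455 CPM in control libraries and overlapped (log2 fold -0.0087, edgeR adjusted p = 0.992). Of 9 genes of collagen processing 8 were lower, with Serpinh1 called and a median of -0.32. Of 16 proteoglycans and matrix glycoproteins 12 were lower and 0 called by edgeR, with 4 at an unadjusted p under 0.05 and a median of -0.26. Bgn (biglycan) was at 449, 550.5 and 576 CPM in smoking and 1023, 471 and 537 CPM in control libraries, so control 1 set its mean. Of 12 matrix proteases and inhibitors 9 were lower, with Mmp2 called and a median of -0.22.

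Collagen genes outside the rule were few in the test. In the list of fibrillar collagens and partners, 3 genes outside the rule were tested: the collagen VI genes Col6a1 and Col6a2, and Col5a1. Col6a2 was at 81.3, 107 and 92.6 CPM in smoking and 266, 118 and 127 CPM in control libraries (log2 fold -0.91, SE 0.30, edgeR adjusted p = 0.191). Col6a1 was at 256, 142 and 238 CPM in smoking and 459, 252 and 223 CPM in control libraries (log2 fold -0.61, adjusted p = 0.373). With the spermatid-rich members and the collagen-rich subgroup left out, the log2 folds of Col6a2 and Col6a1 were 0.19 and 0.28. Over the genes still tested, the list medians moved in the same way. They were 0.19 for fibrillar collagens and partners, -0.014 for basement membrane genes, 0.079 for collagen processing, 0.095 for proteoglycans and 0.16 for proteases. The subgroup was picked by its Col3a1 level and held mostly control barcodes, so this move follows in part from the choice.

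Ligands and receptors of stromal signalling differed in how they lay. Of all 4292 tested genes 2202 were below 0, 482 had an unadjusted p under 0.05 (edgeR) and 0.746% were called. The lists of this paragraph had 0.546 to 2.63% expected free RNA, and the 688 tested genes under 5% had a median log2 fold of -0.18. All 6 tested stromal ligands were lower, with a median log2 fold of -1.06, and Sfrp1 was called. The median was -0.53 without the collagen-rich subgroup and -0.34 without that subgroup and the spermatid-rich members, over the ligands still tested. Tgfb2 was at 34.9, 35.5 and 0 CPM in smoking and 133, 50.5 and 81.9 CPM in control libraries (log2 fold -1.77, SE 0.46, edgeR adjusted p = 0.0725). Ctgf, a matricellular target of TGF-beta and YAP, was at 480.2, 387 and 807 CPM in smoking and 330.3, 723 and 692 CPM in control libraries and overlapped widely. Kitl, the ligand of the KIT receptor of germ cells, was at 77.5, 117 and 119 CPM in smoking and 125, 135 and 132 CPM in control libraries (log2 fold -0.31, SE 0.27, edgeR adjusted p = 0.729). Of 13 tested receptors 7 were lower and 0 called, with 0 at an unadjusted p under 0.05 by edgeR and a median of -0.055. Among the 23 interstitial transcription factors 18 were lower and 0 called by edgeR, with 2 at an unadjusted p under 0.05.

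Other IGF-binding proteins were not called. Igfbp6 was at 2823, 2472 and 3229 CPM in smoking and 2558, 4316 and 2698 CPM in control libraries (log2 fold -0.13, SE 0.19, edgeR adjusted p = 0.846). Igfbp7 had a log2 fold of -0.19 (SE 0.17) and Igfbp4 of -0.15 (SE 0.18). Genes of retinoid handling were not called either: Cyp26b1 was at 534, 536 and 946 CPM in smoking and 411, 900 and 705 CPM in control libraries (log2 fold 0.034, SE 0.23, edgeR adjusted p = 0.977), and Aldh1a1 had a log2 fold of 0.076 (SE 0.27). Rarres2 was lower without overlap, at 554, 572 and 582 CPM in smoking and 661, 715 and 696 CPM in control libraries, and was not called (log2 fold -0.25, SE 0.16, edgeR adjusted p = 0.569). Of 16 complement and coagulation genes 9 were higher and 7 lower, with Gas6 called. Of all 4292 tested genes 2090 were above 0 and 0.746% were called.

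A list of the aryl hydrocarbon receptor, its partner and genes linked to it, with targets that tobacco smoke is known to induce, gave no call. Of 14 listed genes 3 had enough UMIs for the test, Cyp1b1, Tiparp and Nfe2l2, and all 3 were lower. Nfe2l2 is also in the NRF2 list below. The targets Cyp1a1, Ahrr and Nqo1 did not have enough UMIs. Cyp1b1, a classic target of this receptor in fibroblasts, was at 54.2, 60.4 and 26.5 CPM in smoking and 88.6, 42.1 and 59.1 CPM in control libraries (log2 fold -0.40, SE 0.37, edgeR adjusted p = 0.744). Tiparp, another target, was at 54.2, 74.6 and 52.9 CPM in smoking and 133, 75.7 and 81.9 CPM in control libraries (log2 fold -0.68, SE 0.32, edgeR adjusted p = 0.431). Of 32 tested NRF2 and antioxidant genes 9 were higher and 23 lower, with 0 called by edgeR, 2 at an unadjusted p under 0.05 and a median of -0.16. Of all 4292 tested genes 2202 were below 0 and 482 had an unadjusted p under 0.05 (edgeR), and the median was -0.013. The metallothionein Mt1 was at 1580.2, 1183 and 1436 CPM in smoking and 1825, 984 and 1692 CPM in control libraries. The ferritin genes Fth1 and Ftl1 had log2 folds of -0.19 and -0.23, neither called.

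Immediate-early and dissociation genes were lower in 27 of 30 tested, with Egr1 and Atf3 called, 12 at an unadjusted p under 0.05 (edgeR) and a median log2 fold of -0.36. Of all 4292 tested genes 2202 were below 0, 482 had an unadjusted p under 0.05 (edgeR), 0.746% were called and the median was -0.013. The list had 9.06% expected free RNA, and the 688 tested genes under 5% had a lower median than all genes, at -0.18. The subgroup of 103 members led by such genes held 951 of 1334 Egr1 and 1682 of 2408 Fos UMIs, so the 30 genes are not independent observations. Fos was at 1313, 1744 and 1178 CPM in smoking and 2989, 1657 and 2097 CPM in control libraries, where control 2 lay within the smoking range (log2 fold -0.65, SE 0.20, edgeR adjusted p = 0.145). Jun was at 716, 1215 and 933 CPM in smoking and 1805, 1279 and 1456 CPM in control libraries without overlap (log2 fold -0.64, SE 0.19, edgeR adjusted p = 0.122). Cebpd ran the other way, at 616, 668 and 609 CPM in smoking and 604, 412 and 441 CPM in control libraries (log2 fold 0.38, adjusted p = 0.421). With the spermatid-rich members and the collagen-rich subgroup left out the list median was 0.0028. The part of tissue handling in these values was not tested.

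The remaining lists described here held no gene called by edgeR. Their counts stand beside 482 of all 4292 tested genes at an unadjusted p under 0.05 (edgeR) and 2202 below 0. The median was -0.013 over all tested genes and -0.18 over those under 5% expected free RNA. Ribosomal protein and unfolded protein response genes had 23.6 and 29.3% expected free RNA. Of 80 tested ribosomal protein genes 77 were lower, with 18 at an unadjusted p under 0.05 and a median log2 fold of -0.23. They took 7.81, 8.30 and 7.92% of member UMIs in smoking and 11.1, 8.03 and 9.20% in control libraries. Mitochondrially encoded transcripts were higher for 11 of 12 with a median of 0.10, and took 2.58, 2.85 and 3.19% of UMIs in smoking and 2.20, 2.53 and 3.33% in control libraries. Unfolded protein response genes were lower for 12 of 15, with 4 at an unadjusted p under 0.05 and a median of -0.23. Without the spermatid-rich members and the collagen-rich subgroup the medians were 0.038 for ribosomal protein and 0.074 for unfolded protein response genes. Hspa5 (BiP), a chaperone of that response, was at 449, 440.4 and 404 CPM in smoking and 576, 555 and 546 CPM in control libraries (log2 fold -0.35, SE 0.16, edgeR adjusted p = 0.418). Among proliferation genes only 4 of 18 were tested and among senescence genes 8 of 17, none called. Of 12 interferon and antigen presentation genes 8 were lower, and of 6 lipid genes 4 were higher, none called. Cdkn1a (p21) was at 65.8, 63.9 and 79.4 CPM in smoking and 125, 202 and 63.7 CPM in control libraries (log2 fold -0.79, SE 0.34, edgeR adjusted p = 0.391).

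**Figure D5:**
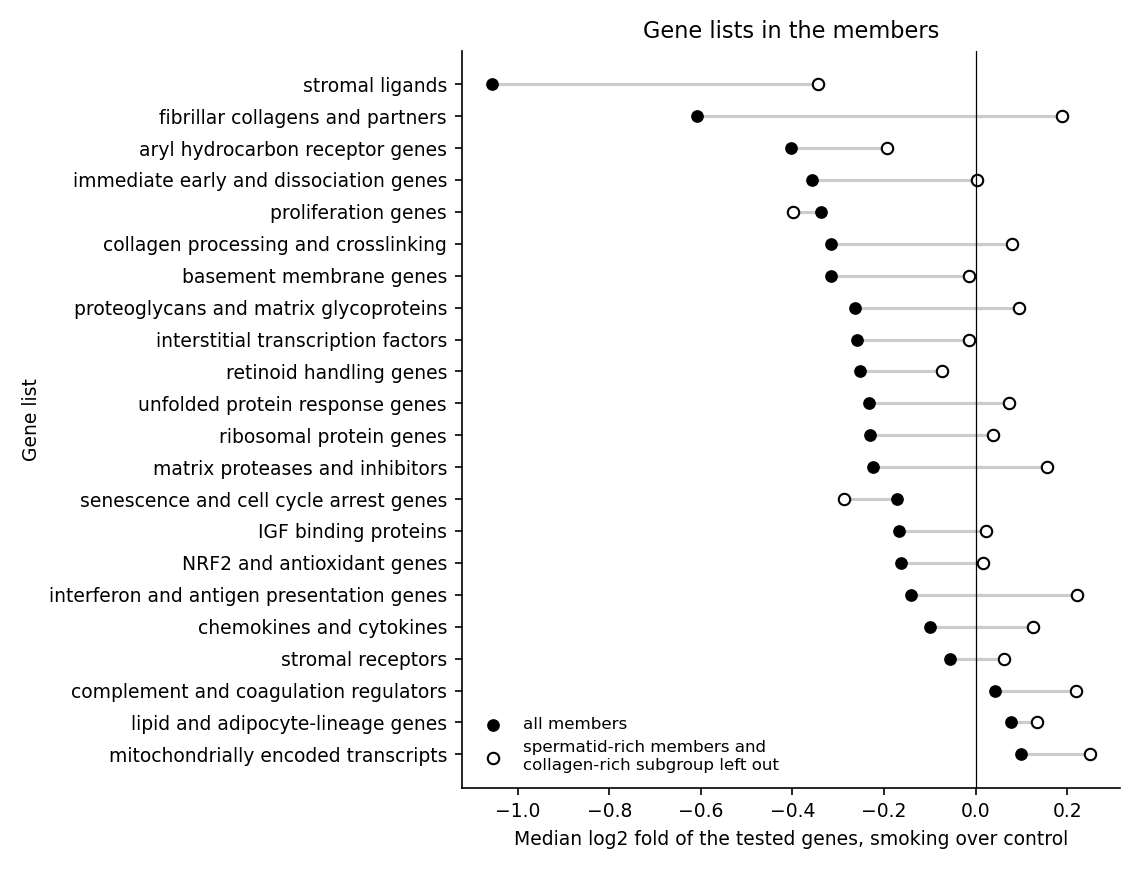
Median log2 fold of the tested genes of each list, smoking over control, in all members (filled) and with the spermatid-rich members and the collagen-rich subgroup left out (open). Of fibrillar collagens and partners only Col6a1, Col6a2 and Col5a1 were tested outside the rule in all members. The medians of this list and of collagen processing lie at -0.61 and -0.32 in all members and at 0.19 and 0.079 in the smaller set. The subgroup left out was picked by its Col3a1 level and held mostly control barcodes, so this move follows in part from the choice.

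The genes of the rule are given as levels. Dcn was at 7177, 9930 and 7715 CPM in smoking and 11020.5, 9136 and 9790 CPM in control libraries, and Pdgfra at 252, 373 and 370.5 CPM in smoking and 258, 319.7 and 350.3 CPM in control libraries. Col1a1 was at 267, 142 and 225 CPM in smoking and 636, 177 and 441 CPM in control libraries, and Col3a1 at 515, 245 and 397 CPM in smoking and 1204, 454 and 946 CPM in control libraries. For both collagens control 2 lay inside the smoking range. Tcf21, a basic helix-loop-helix factor of mesenchymal progenitors, was at 194, 202 and 198 CPM in smoking and 222, 286 and 250.2 CPM in control libraries. Igf1, whose binding protein Igfbp3 was lower, was at 523, 657 and 675 CPM in smoking and 1422, 673 and 859.8 CPM in control libraries. The collagen-rich subgroup held 46.1% of Col1a1, 54.6% of Col3a1, 67.0% of Lum, 4.27% of Tcf21 and 5.68% of Pdgfra UMIs.

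Few members lay near the threshold of the rule. The median rule sum of members was 43 UMIs (range 6 to 323), and only 5 members had a sum of 6 to 9. A sum of 4 or 5 was found in 138 retained barcodes and a sum of 3 or less in 51295. A further 85 barcodes with a sum of at least 6 were not members, of which 9 met the myoid rule and 8 the Leydig rule.

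Whether the smoking effect was particular to these cells was tested on within-library differences of log2 CPM with limma. Against Leydig barcodes of the same libraries, 0 of 3926 genes differed in effect (134 had an unadjusted p below 0.05), and 1 gene was called without control 2. Against all other retained barcodes, 0 of 4281 genes differed (183 had an unadjusted p below 0.05). Of the 12 lower genes, Myh10 came nearest, with a log2 fold that was lower by -1.52 (SE 0.25) in members than in the other barcodes (limma adjusted p = 0.343). For Igfbp3 the difference was -2.03 (SE 0.76, limma adjusted p = 1.00) and for Sparc -0.40 (SE 0.45, limma adjusted p = 1.00). No gene is therefore shown to respond differently here from elsewhere in the testis.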

How the data were processed

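The deposited matrices held raw UMI counts of 30905 genes in 6 libraries, not normalized by the authors. Their build is mm10 and base calling used CASAVA 1.8, per the submitters' processing notes. The counting software is Cell Ranger, version 3.1.0 per the file headers but 7.1.0 per those notes. Per the labels' protocols libraries were made with the 10x 3′ v2 kit.

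Barcodes over 20% mitochondrial UMIs were removed, and members were chosen by the rule given in the report. Doublets were scored but kept. The members, gene lists and alternatives were chosen with earlier results of these data known, and subgroups, spermatid-rich members (over 12% spermatid-marker UMIs) and their omission were chosen after seeing the data. UMIs were summed per library and compared with edgeR 4.0.16 (TMM, filterByExpr, quasi-likelihood test, adjusted p under 0.05). Log2 folds are smoking over control. Standard errors are the fold divided by the square root of F. Differences between cell classes used limma 3.58.1 (prior count 1), and shares used exact permutation over 20 assignments. Subgroups came from scanpy 1.11.5 (Leiden, 15 components, 15 neighbours). DESeq2 1.42.0, limma-voom, other scalings, filters, rules and the omission of each library were alternatives. On simulated member sums of 4396 genes, edgeR recovered 66% of 2-fold and 98% of 4-fold changes, and 6.29% of its calls were false. The simulation gave all genes a common dispersion, changed only better-counted genes and held no uneven subgroups, so these shares need not hold for the real sums. Genes named are the called ones (at most 15 each way by p), the 4 most abundant tested members of each list, leading genes and the rule genes, and a few others of the lists chosen after their values were seen. Gene positions are from GENCODE M21. Some genes are not reported here.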

Additional observations from a re-analysis of the deposited data

How the results depend on the processing

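The count of called genes, 32 in the edgeR fit, depended on most choices. It was 15 with DESeq2 (176 genes at an unadjusted p under 0.05), 69 with no filter on low counts, 1 with a rule sum of at least 4, 0 with a rule sum at least 3 times the other sums (edgeR, 267 at an unadjusted p under 0.05), 1 without high doublet scores, 71 without members carrying other markers, 0 with free RNA subtracted (edgeR, 85 at an unadjusted p under 0.05) and 2 after thinning to 1500 UMIs. It was 27 with limma-voom, 33 with DESeq2 size factors, 26 with library size alone and 32 with a rule sum of at least 10. Leaving out single libraries gave 0 to 64. The alternatives chosen after seeing the data gave 1 without the spermatid-rich members, 14 without the collagen-rich subgroup, 0 without both (edgeR, 129 at an unadjusted p under 0.05) and 2 without the collagen-rich subgroup and control 1. In that last fit the log2 fold of Igfbp3 was 0.052 (edgeR adjusted p = 0.988), the 1 reversal of a called gene outside the rule; signs of uncalled genes were not counted. All 12 lower genes kept their sign in each leave-one-out fit, with medians from -1.93 to -1.34, as did the 19 higher genes.

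The difference in the share of members, 0.0577 percentage points, was -0.417 as a percent of somatic-rule barcodes, -0.0133 after thinning and -0.0451 to 0.154 when single libraries were left out. The count of genes whose effect differed from Leydig barcodes was 0 to 1 when single libraries were left out. The cause was not tested for any of these. No paired analysis was possible because the labels give the libraries no shared replicate numbers. Depth limits the counts: genes such as Sfrp1 and Myh10 rest on 1 to 6 UMIs per smoking library.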
